A study of Mus musculus with 3 samples.

Results

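The clustered histone genes of the mouse were followed in polyadenylated RNA from bone-marrow-derived macrophages. Members were the genes whose symbol in the deposited tables begins with Hist1h, Hist2h, Hist3h or Hist4h, and 70 of the 55536 genes in the tables met that rule. They comprised 6 genes of the linker class H1, 20 of class H2A, 19 of class H2B, 12 of class H3 and 13 of class H4. Of the 70, 56 lie on chromosome 13 (Hist1), 10 on chromosome 3 (Hist2), 3 on chromosome 11 (Hist3) and 1 on chromosome 6 (Hist4), in build mm10. The annotation calls 67 of them protein coding and 3 of them pseudogenes. The study holds 3 libraries of C57BL/6J macrophages grown from bone marrow, and all 3 belong to 1 group, lipid A (the lipid part of bacterial lipopolysaccharide, at 100 ng/ml) for 0 minutes. The labels name no genotype change, transgene or other agent, and sex and age were not recorded. There was therefore no contrast to test, and every value below is a description. The 3 libraries are labelled as separate biological replicates but trace to 1 donor record, so the spread between them may be technical.

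Histones are the proteins around which DNA is wound, and most of the clustered genes are switched on when a cell copies its DNA. As background, their messenger RNAs are unusual in that they normally end in a short stem-loop just after the stop codon and not in a poly(A) tail. The stem-loop is bound by the protein encoded by Slbp, and the U7 small nuclear particle directs the cut that forms the end. Some of these genes also carry a poly(A) signal further downstream, and polyadenylated forms of histone messages are known from differentiated cells that no longer divide.

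Library depth was 27946070, 29779410 and 53447437 expected counts in replicates 1, 2 and 3, so that a count of 0 allows up to 0.107, 0.101 and 0.0561 CPM, the count scaled to the library total. All 10 macrophage markers reached 1 TPM, a level corrected for gene length and library depth, in each of the libraries, their median being 404 TPM, led by the lysozyme gene Lyz2, Cd68 and Tyrobp. Fewer markers of other cells passed that level: 5 of 10 neutrophil, 1 of 10 erythroid, 1 of 10 B and T cell and 2 of 8 progenitor markers. The neutrophil marker Ly6g had no counts. Other neutrophil markers were clearly present: S100a9 had 86.9, 20.1 and 183 TPM and S100a8 65.1, 12.3 and 83.0 TPM. The progenitor marker Ly6a had 20.1, 111 and 7.79 TPM. It stood apart from its list: Meis1, the next, had 1.52, 1.73 and 1.99 TPM. No other progenitor marker, Kit, Cd34 and Flt3 among them, passed 1.99 TPM in any library. In some libraries S100a9, S100a8 and Ly6a lay above Mertk, the macrophage marker of lowest mean, which had 49.5, 80.9 and 112 TPM. The ribosomal RNA gene CT010467.1 took 9.75%, 1.88% and 2.50% of the counts of replicates 1, 2 and 3, so RNA of a kind known to lack a poly(A) tail was present. Other such RNAs had another order: small nuclear RNA genes summed to 351, 99.6 and 839 TPM and Malat1 had 282, 366 and 1801 TPM, both highest in replicate 3. In bulk RNA, fewer cells with a message and less of the message per cell cannot be told apart.

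A small number of the clustered genes carried nearly all of their signal. Of the 70 members, 10 reached 1 TPM in every library, against 19.0% of all genes and 44.8% of protein-coding genes. A further 53 stayed below 1 TPM in every library, and 7 were at or above it in some libraries only. No expected count was assigned to 19 members in any gene table, compared with 32.6% of protein-coding genes, and 35 had under 3 counts in each. The authors' upper credibility bounds for the members without counts ran from 0.113 to 1.86 TPM, so low levels of these genes were not detectable at this depth.

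The summed level of the members was 340 TPM in replicate 1, 501 TPM in replicate 2 and 302 TPM in replicate 3, a mean of 381 ± 106 TPM (SD, n = 3). Their share of all counts was 0.0156% in replicate 1, with a 95% interval by Wilson's method of 0.0152 to 0.0161. In replicates 2 and 3 it was 0.0314%, within 0.0308 to 0.0321, and 0.0199%, within 0.0196 to 0.0203. These intervals, and the limits on a count of 0, cover counting error only. The 6 members above 10 TPM on average held 91.0%, 89.0% and 93.1% of the summed TPM, and 31.4% of protein-coding genes lay above that level. The plot of levels by library shows the 20 highest members.

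**Figure D1:**
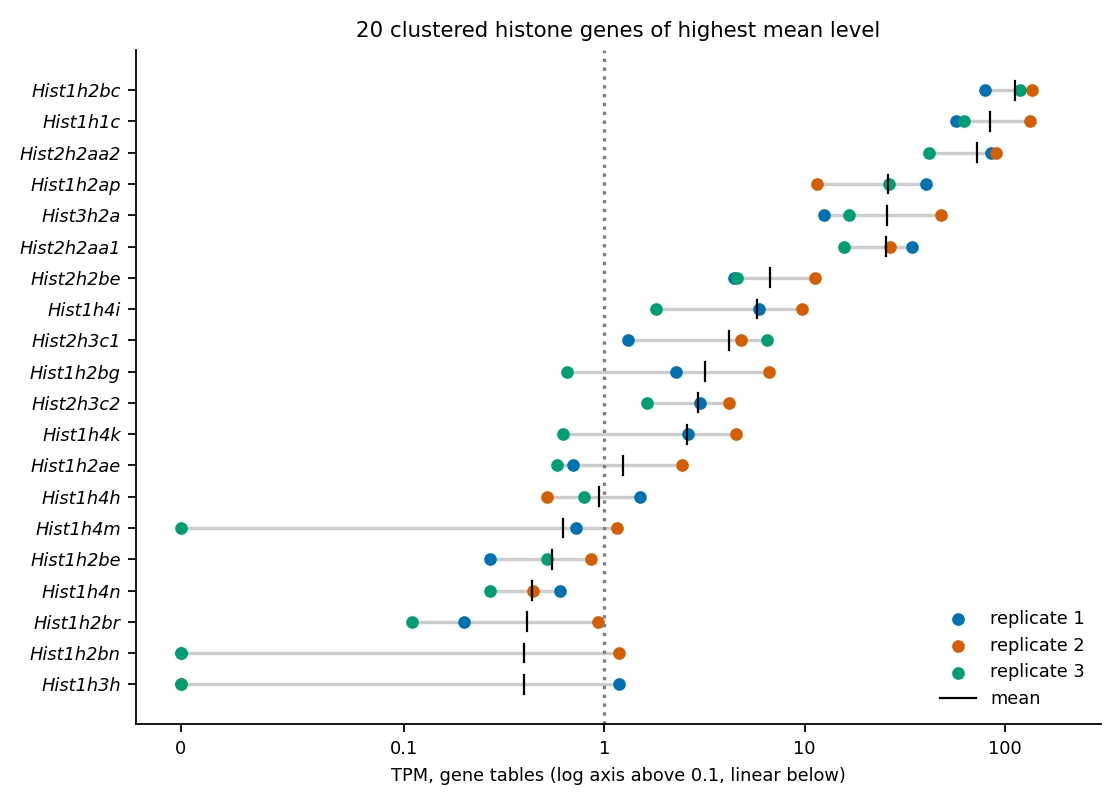
TPM of the 20 clustered histone genes of highest mean level (horizontal axis, logarithmic above 0.1), with 1 point per library, a black tick at the mean of the 3 libraries and a dotted line at 1 TPM. Levels drop from 111 TPM for Hist1h2bc to below 1 TPM at the 14th gene, Hist1h4h, and the 3 libraries lie apart for most of the genes.

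Linker histone signal came from 1 of the 6 H1 genes. Hist1h1c (chr13:23738808-23740367, plus strand), which encodes the somatic linker histone H1.2, had 57.0, 133 and 62.4 TPM in replicates 1, 2 and 3, from 1369, 3414 and 3205 expected counts. Replicate 2 stood above the other libraries, which lay close together. The other H1 genes were far lower: the next, Hist1h1e, had 0.20, 0.14 and 0.24 TPM. Hist1h1t, the testis linker histone gene, had no counts in any table.

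The H2A genes summed to 174, 179 and 101 TPM in replicates 1, 2 and 3, above the H2B sum of 88.4, 160 and 124 TPM in replicates 1 and 2 but below it in replicate 3, and 12 of the 20 H2A genes had no counts in any gene table. Core histone H2A pairs with H2B in the nucleosome. Hist2h2aa2 (chr3:96239749-96240276, minus strand) had 85.4, 90.1 and 41.5 TPM. Its neighbour Hist2h2aa1 (chr3:96245497-96246082, plus strand) had 34.4, 26.6 and 15.7 TPM. Both genes were lowest in replicate 3, and since their transcripts are copies of one another their sum is the safer value, at 120, 117 and 57.2 TPM. Hist3h2a (chr11:58954685-58956830, plus strand), from the small Hist3 cluster, had 12.5, 47.8 and 16.6 TPM and was highest in replicate 2. Hist1h2ap (chr13:21833026-21833507, minus strand) had 40.1, 11.6 and 26.4 TPM, the reverse order, with replicate 2 lowest.

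Among H2B genes, Hist1h2bc (chr13:23684199-23692908, plus strand) had the highest mean of all members, with 79.7, 136 and 118 TPM in replicates 1, 2 and 3 and a mean of 111 ± 28.9 TPM (SD, n = 3). Its lowest library was replicate 1. Hist2h2be (chr3:96221119-96223738, plus strand) followed at 4.43, 11.2 and 4.58 TPM, and was highest in replicate 2 with the other libraries level. Hist1h2bg crossed the 1 TPM line, at 2.27, 6.61 and 0.65 TPM. Of the 19 H2B genes, 5 had no counts in the gene tables, among them Hist1h2ba, which encodes a testis H2B.

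Class H3 and class H4 genes were low. The H3 sum was 6.66, 10.5 and 8.59 TPM in replicates 1, 2 and 3. It came mostly from Hist2h3c1 (1.32, 4.84 and 6.48 TPM) and Hist2h3c2 (3.00, 4.2 and 1.63 TPM), whose libraries are ordered differently. Hist1h3i was the H3 gene without counts in the gene tables. The H4 sum was 12.8, 17.7 and 5.13 TPM, led by Hist1h4i (chr13:22040636-22041362, minus strand) at 5.90, 9.73 and 1.81 TPM. Hist1h4k came next with 2.61, 4.56 and 0.62 TPM, values that rest on 3.79, 7.02 and 2 expected counts because the effective length of its 312-base transcript was 78.9 bases in replicate 1. Hist4h4 was the lowest H4 gene at 0.02, 0.06 and 0.01 TPM. As background, a nucleosome holds equal numbers of the proteins H2A, H2B, H3 and H4. Of the members' summed TPM, H3 genes held 1.96%, 2.09% and 2.85% and H4 genes 3.78%, 3.53% and 1.70%. These are shares of polyadenylated RNA from the clustered genes only, not of protein. They leave out the H3 genes H3f3a and H3f3b outside the clusters, at means of 648 and 483 TPM.

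The transcripts behind these levels were then compared by their annotated 3′ ends. Of the 70 members, 66 have an annotated stop codon in their most abundant transcript, and 28 of the 66 run more than 100 bases past it (long-ended) while 38 do not (short-ended). A stem-loop was sought as 16 bases of the form GGNNNTNNNNANNNCC in which the 6-base arms pair exactly, and a poly(A) signal as AATAAA or ATTAAA in the last 50 bases, on the transcript strand. The stem-loop was found in 45 members, starting 21 to 58 bases after the stop codon with a median of 31. In 16 of the 66 the annotated transcript ends within 2 bases of the stop codon, so none could be found there. It took 8 forms, of which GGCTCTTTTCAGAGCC was in 25 members, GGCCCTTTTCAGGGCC in 7 and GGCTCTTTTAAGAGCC in 6. Of 20983 other protein-coding genes, 15 (0.0715%) had such a stem-loop starting within 100 bases of the stop codon, among them the histone variant gene H2afx with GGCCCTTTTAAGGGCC. The members of highest level are shown here to compare their ends, with the stem-loop in capitals and the bases read from the GENCODE M21 transcripts (build mm10).
Hist1h1c, chr13:23739507-23739532, plus strand: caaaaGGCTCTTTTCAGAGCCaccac
Hist2h2aa2, chr3:96239779-96239804, minus strand: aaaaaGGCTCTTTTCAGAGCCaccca
Hist2h2aa1, chr3:96246027-96246052, plus strand: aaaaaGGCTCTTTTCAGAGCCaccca
Hist3h2a, chr11:58955167-58955192, plus strand: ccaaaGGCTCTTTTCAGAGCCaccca
Hist1h2ap, chr13:21833026-21833049, minus strand: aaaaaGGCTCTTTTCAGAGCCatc
Hist1h4i, chr13:22040961-22040986, minus strand: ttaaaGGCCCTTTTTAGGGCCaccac

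The annotated transcript of Hist1h2ap stops 3 bases after this stem-loop, at 57 bases past the stop codon. Those of Hist2h2aa1 and Hist2h2aa2 run 109 bases past the stop codon and end 35 bases after the stem-loop, just beyond the limit that separates the groups. The others continue much further: 880 bases past the stop codon in Hist1h1c, 1700 in Hist3h2a and 376 in Hist1h4i. Near those distant ends lie the poly(A) signals shown here in capitals, and Hist2h2be, whose 2192 bases past the stop codon held no match to the stem-loop, has one too.
Hist1h1c, chr13:23740334-23740357, plus strand: atgcttctAATAAAaagcgtttag
Hist3h2a, chr11:58956789-58956812, plus strand: atatgcccAATAAAataagagtac
Hist1h4i, chr13:22040641-22040664, minus strand: ctgtttacATTAAAagtattctat
Hist2h2be, chr3:96223709-96223732, plus strand: ttattattAATAAAgttaccgatt

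Hist1h2bc, the highest member, has a different annotated structure. Its transcript held no match to the stem-loop and is spliced 9 bases after the stop codon, over an intron of 7554 bases (chr13:23684622-23692175), to an exon of 733 bases (chr13:23692176-23692908). In other members the stem-loop starts 21 to 58 bases after the stop codon, a stretch that falls within this intron. The intron was not searched, so whether the gene holds a stem-loop there was not examined. The bases around the junction of the exons are given with the stop codon in capitals. The first 12 bases end the first exon at chr13:23684610-23684621 on the plus strand, and the rest open the next exon.
Hist1h2bc: TGAtcctgccaagaggagcagacc

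Of the 10 members that reached 1 TPM throughout, 9 were long-ended, and Hist1h2ap was the exception. Of these 10, 8 held the stem-loop and 5 the poly(A) signal, and over all members with a stop codon 14 had the signal, 13 of them long-ended. For scale, 64.7% of the transcripts of other protein-coding genes had the signal. Long-ended members had a median of 0.305 TPM and 1 of 28 without counts, against a median of 0.0883 TPM and 16 of 38 without counts among short-ended members. In 16 members the annotated transcript ends within 2 bases of the stop codon, so reads from past that point cannot be assigned to it, and a short annotation also leaves a short effective length.

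Transcripts annotated to run more than 100 bases past the stop codon held 85.1%, 95.3% and 90.3% of the members' summed TPM in replicates 1, 2 and 3. The mean was 90.2 ± 5.09% (SD, n = 3) in the RSEM-format transcript tables. Only 5 members have more than 1 annotated transcript. Where a long transcript alone is annotated, reads of a form ending at the stem-loop would be assigned to it as well. The share therefore describes annotated ends weighted by level and does not show where the RNAs ended. With the line drawn at 200 bases the mean was 63.3%, because Hist2h2aa1 and Hist2h2aa2 then counted as short. The plot of end length and level shows both sides of the line.

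**Figure D2:**
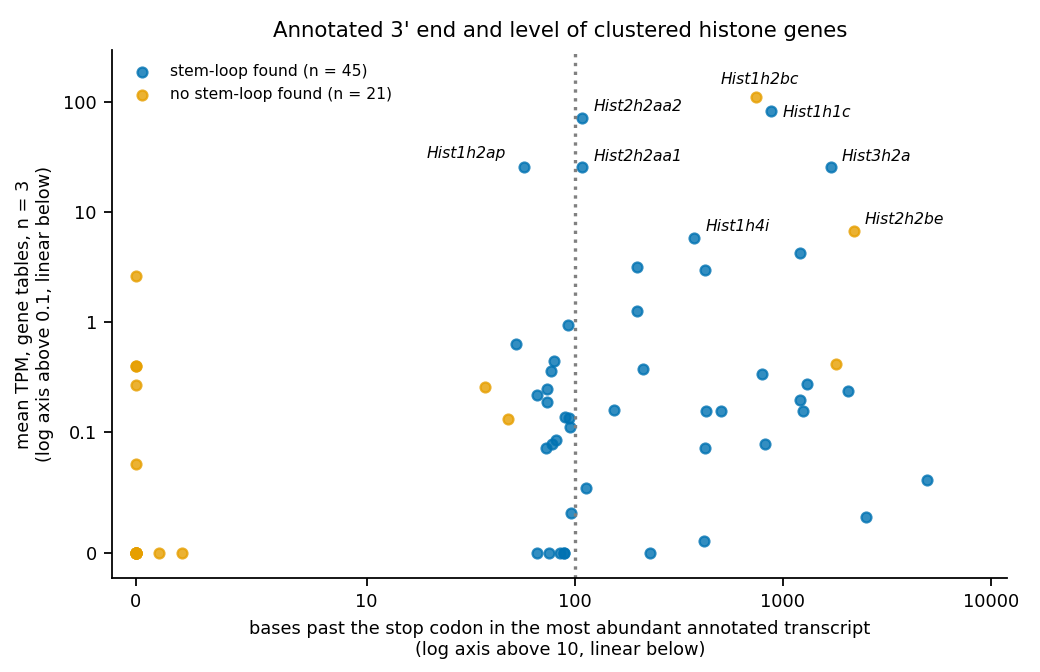
Mean TPM over 3 libraries (vertical axis, logarithmic above 0.1) against the bases past the stop codon in the most abundant annotated transcript (horizontal axis, logarithmic above 10) for 66 clustered histone genes, with stem-loop genes in blue, others in orange and a dotted line at 100 bases. Orange means that no stem-loop was found in the annotated transcript. It includes 16 genes whose annotation ends within 2 bases of the stop codon, and Hist1h2bc, whose intron after the stop codon was not searched. To the left of the line Hist1h2ap at 26.0 TPM stands alone above 3 TPM, and the other named genes lie to the right.

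Many clustered histone genes lie head to head, an H2A gene and an H2B gene sharing the stretch between their starts. Among the members 15 such divergent pairs had starts 173 to 660 bases apart, and 14 of the 15 joined an H2A gene with an H2B gene. In 4 pairs a single partner reached 1 TPM in every library, and in 0 pairs did both. Hist1h2bc had 79.7, 136 and 118 TPM in replicates 1, 2 and 3 while its partner Hist1h2ac, 251 bases away, had 0.28, 0.28 and 0.15 TPM. Hist3h2a had 12.5, 47.8 and 16.6 TPM beside 0, 0.72 and 0 TPM for the pseudogene Hist3h2bb-ps. These 4 pairs are those where the 1 TPM line separates the partners, so the gap within them is a description. The remaining pairs were Hist1h2ap with Hist1h2br, at means of 26.0 and 0.413 TPM, and Hist2h2be with Hist2h2ac, at 6.74 and 0.133 TPM. Hist1h2bg and Hist1h2ae, the fifth pair by level, were closer, with 2.27, 6.61 and 0.65 TPM for Hist1h2bg and 0.70, 2.45 and 0.58 TPM for Hist1h2ae.

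**Figure D3:**
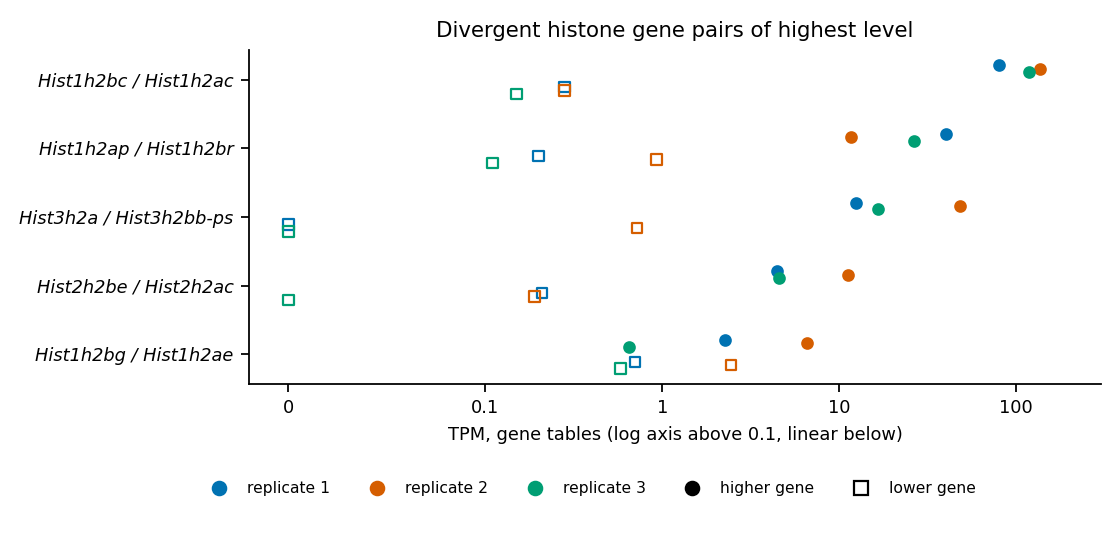
TPM (horizontal axis, logarithmic above 0.1) of both genes of the 5 divergent pairs of highest level, with filled circles for the higher gene, open squares for the lower one and 1 colour per library. In the upper 4 pairs the circles and squares are separated in every library, and in Hist1h2bg and Hist1h2ae they lie close.

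The stretch shared by the pair with the widest gap in level is shown as the promoter of Hist1h2ac, taken from RefSeq (build GRCm38.p6, chr13:23683910-23684209, minus strand), which runs from 250 bases before its RefSeq start to 50 after. That start lies slightly upstream of the M21 start used for the gap of 251 bases, and the distances below are from the RefSeq start. The start of Hist1h2bc lies within it, at the far end. Capitals mark matches, on either strand, to the motif CCAAT, the motif TATAAA or the motif ATTTGCAT, and no matches overlap here.
Hist1h2ac promoter: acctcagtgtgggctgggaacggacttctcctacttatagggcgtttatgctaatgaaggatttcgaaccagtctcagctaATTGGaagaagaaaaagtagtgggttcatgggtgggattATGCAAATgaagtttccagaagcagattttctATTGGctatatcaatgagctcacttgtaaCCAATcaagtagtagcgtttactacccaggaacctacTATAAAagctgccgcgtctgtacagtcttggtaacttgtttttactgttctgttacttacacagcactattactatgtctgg

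CCAAT begins 169, 98 and 69 bases before the Hist1h2ac start, the first and second on the other strand. ATTTGCAT, the octamer known from H2B promoters, lies 130 bases before it on the other strand, the strand read by Hist1h2bc, and TATAAA lies 32 bases before it. Of the 70 members, 62 had a promoter in the RefSeq table, with 63 promoters in all. CCAAT was in 54 of the 63 (85.7%), against 37.4% of all 32851 promoters of the same length. TATAAA was in 35 (55.6%), against 13.6% of all promoters. ATTTGCAT was in 14 (22.2%), 7 of them among the 17 H2B promoters, against 1.74% of all promoters. Divergent partners with close starts share much of this stretch, so the 63 promoters are not all separate sequences. A single match can then count for both genes of a pair, which limits the comparison with all promoters. These are matches of letters and say nothing of what binds there.

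The members are close copies, which limits how far reads can be split between them. A median of 37.6% of the 31-base words of a member's transcript occurred in no other gene's transcript on either strand, with class medians of 96.2% for H1, 19.2% for H2A, 41.5% for H2B, 36.9% for H3 and 52.1% for H4. For 6 members no word was their own, among them Hist2h2aa1, Hist2h2aa2 and Hist2h3c1. The transcripts of Hist2h2aa1 and Hist2h2aa2 were identical over 528 bases, and that of Hist2h2aa1 is 58 bases longer. Their coding sequences are identical, as are those of Hist1h2ap and Hist1h2ao, Hist1h2bq and Hist1h2br, and Hist1h4m and Hist1h4n. Hist1h2ap had 26.0 TPM on average and Hist1h2ao no counts in the gene tables, although 93.4% of the words of Hist1h2ap also occur in Hist1h2ao, so that split is uncertain.

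Overlapping genes add to this. Gm20634 covers Hist2h2aa1 and Hist2h3c1 on the same strand and had 6.00, 12.2 and 4.26 TPM in replicates 1, 2 and 3. Antisense genes Gm20632 and Gm20633 cover Hist2h2aa2 and Hist2h2aa1 from the opposite strand, at 1.91 to 2.61 and 0.91 to 1.19 TPM. Trim17 overlaps Hist3h2a on the same strand and had 0.22 to 0.28 TPM, and the microRNA gene Gm44313 lies opposite Hist3h2a with 7.71, 30.5 and 27.3 TPM. The microRNA genes Gm47311 and Gm47313, opposite Hist2h2aa2 and Hist2h2aa1, each had 10.6, 11.7 and 0 TPM. Whether counting used the strand of reads is not given in the sources used here, so reads of these genes and their histone neighbours cannot be told apart with certainty.

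The deposit holds a second set of tables in the format of kallisto, a program that assigns reads to transcripts by shared words, and these gave a check on the split. Summed over members, the kallisto-format tables gave 243, 353 and 263 TPM, against 340, 501 and 302 TPM in the gene tables. Members at 1 TPM or more had a median log2 difference (kallisto-format over gene table, pseudocount 1) of -0.45, -0.47 and -0.12 in replicates 1, 2 and 3, and all genes at that level one of -0.36, -0.35 and -0.05. In CPM the members summed to 144, 292 and 189 in the kallisto-format tables, against 156, 314 and 199 in the gene tables. Over 2-fold apart in the same direction in every library was 1 of the 70 members, Hist2h3c1, lower in the kallisto-format tables, as were 0.337% of all genes. Another 0.873% of all genes were apart in the other direction, which makes 1.21% in either, and the share was 0.456% among protein-coding genes at 1 TPM or more.

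Hist2h3c1 had 0, 0.0749 and 2.65 TPM in the kallisto-format tables, against 1.32, 4.84 and 6.48 TPM in the gene tables. Within the RSEM-format transcript tables its level moved between transcripts of 1820 and 1825 bases: the shorter had 0, 4.76 and 0 TPM and the longer 1.32, 0.08 and 6.48 TPM. Its value therefore depends on how shared reads are divided. The next largest mean log2 differences were 0.58 for Hist1h4k, -0.55 for Hist2h2aa2, 0.54 for Hist1h2ad and -0.44 for Hist1h2ap. Hist1h2ad is listed at 0 in every gene table and had 0.137, 0.696 and 0.600 TPM in the kallisto-format tables.

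**Figure D4:**
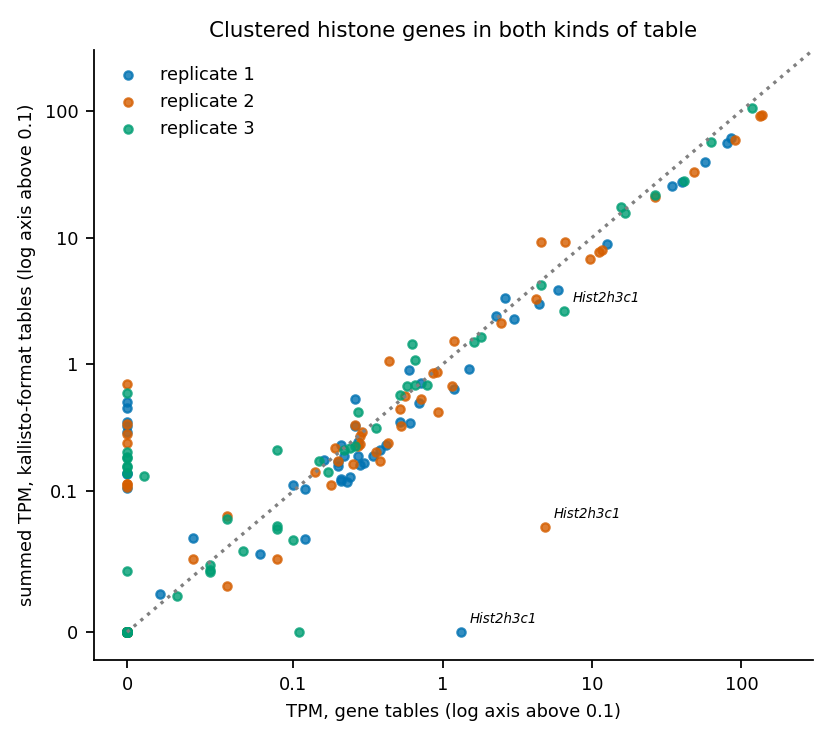
Summed TPM in the kallisto-format tables (vertical axis) against TPM in the gene tables (horizontal axis) for the 70 clustered histone genes, both axes logarithmic above 0.1, with 1 colour per library and a dotted line of equal values. Most high members lie just below the line, Hist2h2aa1 lies above it in replicate 3, Hist2h3c1 lies below it in every library, and members at 0 in the gene tables are spread up to 0.696 TPM.

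The libraries were next set against one another with scaled expected counts, as the log2 ratio of a library to the geometric mean of the other 2. Of the 70 members 11 had enough counts for this, namely Hist1h2be and the 10 that reached 1 TPM throughout. Their median ratio was -0.83 in replicate 1, 0.74 in replicate 2 and -0.22 in replicate 3, while the medians over all 11886 genes kept lay within 0.01 of 0. Of the 11, 2 were highest in replicate 1, 7 in replicate 2 and 2 in replicate 3, beside 34.7%, 32.3% and 33.0% of all genes. The copies Hist2h2aa1 and Hist2h2aa2 count separately in these numbers, although their reads cannot be split with certainty. Which library was lowest depended on the processing. With kallisto-format counts the medians were -0.18, 0.79 and -0.24, and without a filter on low counts 0.35, 0.58 and -0.65. In both, replicate 2 stayed highest and replicate 3 became lowest. With TPM on the log2 scale the medians were -0.40, 0.59 and -0.54, but all genes had medians of 0.095, 0.123 and -0.230 on that scale. Which of replicates 1 and 3 was lower there cannot be read from the members alone. With 3 libraries of 1 group there is no test of these differences.

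The members did not move as a block. Hist3h2a had ratios of -1.33, 1.55 and -0.22 in replicates 1, 2 and 3, Hist1h1c -0.83, 0.98 and -0.14, and Hist2h2be -0.84, 1.13 and -0.29, all highest in replicate 2. Hist1h2ap, the short-ended member, ran the other way with 1.00, -1.69 and 0.69. Hist2h2aa1 had 0.57, -0.01 and -0.57, Hist1h4i 0.32, 1.37 and -1.69, and Hist2h3c1 -2.23, 0.54 and 1.69. Long-ended members summed to 289, 477 and 272 TPM, and short-ended members to 50.4, 22.2 and 29.0 TPM. These orders did not hold across each group: the 5 long-ended members below 200 bases past the stop codon, Hist2h2aa1 and Hist2h2aa2 among them, summed to 121, 119 and 58.1 TPM, and the 37 short-ended members other than Hist1h2ap to 10.3, 10.6 and 2.57 TPM.

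Genes of DNA replication were set beside these values, since clustered histone genes are known to be used in S phase. All 30 listed S-phase genes were highest in replicate 1, with median ratios of 2.35, -1.90 and -0.32 in replicates 1, 2 and 3. Pcna, the sliding clamp of DNA polymerase and the highest of the list, had 725, 178 and 325 TPM, and the lowest, the transcription factor gene E2f2, had 3.92, 2.19 and 1.03 TPM. The helicase subunit genes Mcm6 and Mcm3 were lowest in replicate 2, with 137, 19.5 and 36.4 TPM and 99.2, 14.8 and 21.2 TPM. Of the 15 mitosis genes, 8 were highest in replicate 1, 7 in replicate 3 and 0 in replicate 2, with median ratios of 1.08, -2.26 and 1.08. Cdk1, the mitotic kinase gene, had 86.7, 20.1 and 37.9 TPM. Replicate 1, with the highest level of S-phase genes, was not the library with the highest median ratio of the clustered histone genes. Of the 11 members compared, 2 were highest there, the short-ended Hist1h2ap and the long-ended Hist2h2aa1. Hist2h2aa2, the copy of Hist2h2aa1, was highest in replicate 2, with ratios of 0.30, 0.39 and -0.69. The summed TPM of these copies was 120, 117 and 57.2, so which library was highest for each depends on how shared reads are divided. The ribosomal RNA share was also highest in replicate 1, mitochondrial transcripts took 1.84%, 2.24% and 6.98% of the counts, and neutrophil markers summed to 182, 38.5 and 349 TPM. The part of these in the library differences was not tested.

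**Figure D5:**
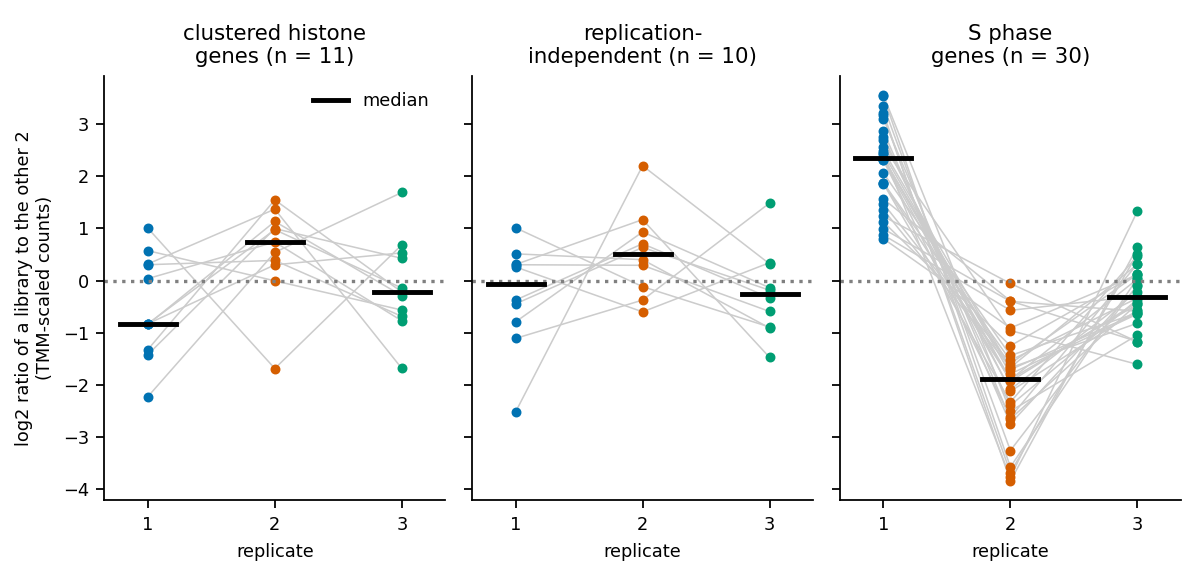
Log2 ratio of each library to the other 2 (vertical axis, TMM-scaled counts) by replicate (horizontal axis) for 11 clustered histone genes, 10 replication-independent histone genes and 30 S-phase genes, with 1 point per gene, grey lines joining the values of a gene and black bars at the medians. Clustered histone genes have medians of -0.83, 0.74 and -0.22, whereas the S-phase genes have 2.35, -1.90 and -0.32.

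Histone genes outside the clusters, most of which are known to give polyadenylated messages outside S phase too, served as a comparison. Of 14 such genes, 10 reached 1 TPM in every library, and their sum was 1553, 1890 and 1211 TPM in replicates 1, 2 and 3, several times that of the 70 clustered genes. H3f3a and H3f3b, which both encode H3.3, had 544, 912 and 487 TPM and 579, 398 and 473 TPM. H2afz, which encodes H2A.Z, had 204, 199 and 84.3 TPM. In scaled counts H3f3a had ratios of -0.38, 0.71 and -0.33 in replicates 1, 2 and 3, and H3f3b 0.26, -0.60 and 0.34, with replicate 2 highest for H3f3a and lowest for H3f3b. The germ-cell genes Hils1, H1foo and H1fnt had no counts. H2afx, whose message is known in a stem-loop and a polyadenylated form, had 17.2, 10.3 and 5.66 TPM.

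Of the genes whose products form histone 3′ ends, 20 were listed and 19 found, and messages of 17 reached 1 TPM in every library; Lsm11 and Zfp473 did not. Slbp, the stem-loop binding protein gene and also one of the S-phase genes above, had 50.8, 28.6 and 19.5 TPM in replicates 1, 2 and 3, in the same order as Snrpb (176, 120 and 37.4 TPM), a core protein of small nuclear particles and the highest of the list. Cdk9, a kinase of transcript elongation, had 77.4, 122 and 85.3 TPM, and Snrpd3, another core particle protein, 69.8, 38.2 and 153 TPM. Lsm11 of the U7 particle had 4.28, 1.56 and 0.65 TPM, and Zfp473, a zinc finger protein of the same pathway, was lowest at 0.18, 0.50 and 0.21 TPM. Histone chaperones, which carry histones to and from DNA, reached 1 TPM in every library in 20 of 20 cases, and 13 of the 20 were highest in replicate 1. Nap1l1, a carrier of H2A and H2B, was the highest at 242, 115 and 229 TPM, and Chaf1a of the replication-coupled assembly factor the lowest at 14.5, 2.2 and 4.48 TPM. Of 17 genes for RNAs known to lack a tail, 8 had no counts in the gene tables, including the U7 RNA gene Rnu7, though some of the 8 had values in the kallisto-format tables.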

How the data were processed

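Polyadenylated RNA of 3 macrophage libraries was analysed from the tables the authors deposited. The gene and transcript tables hold expected counts and TPM in RSEM format, with the authors' posterior means and credibility bounds, whose level is not stated. The kallisto-format tables the authors deposited hold estimated counts and TPM per transcript, summed here per gene. The deposited file lists name build mm10 and GENCODE M21. The sources used here state no aligner, tool version or use of strand. For ratios, expected counts were rounded, kept by edgeR 4.0.16 (filterByExpr) and scaled by TMM with a prior count of 0.5; no test was run, since there is 1 group. The scaling step was tested on simulated data. Stem-loops, poly(A) signals and 31-base words were sought in the M21 transcripts, promoters in RefSeq (GRCm38.p6). The 4 members whose leading transcript has no annotated stop codon counted in totals but not as long-ended. Named genes are the 10 highest, the ends of each class, the 5 with the largest differences between tables, and the most extreme library ratios, with the highest and lowest genes of each list. Slbp, Lsm11, Rnu7, H2afx, Hist1h1e, overlapping genes and partners in pairs were named outside this rule, with their values seen. Members and lists were chosen with earlier results of these data known. Alternatives covered thresholds, pseudocounts, DESeq2 1.42.0 size factors, the other tables and leaving out each library.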

Additional observations from a re-analysis of the deposited data

How the results depend on the processing

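With 3 libraries of 1 group, these results have no test. Of 69 alternative values, 63 stayed within the spread between libraries, or within 1.5 times for counts. Leaving out 1 of 3 libraries cannot move a mean beyond that spread. Such values for the summed levels and the long-ended share are therefore no support. For the library ratios the spread was that between their own 3 medians, so a move from -0.83 to -0.18 stayed within it. With the kallisto-format tables the summed level of H3 was 4.58 TPM in place of 8.58 TPM, most of the drop being that of Hist2h3c1. The share of level in long-ended transcripts was 63.3% with a limit of 200 bases, by construction, since Hist2h2aa1 and Hist2h2aa2 then count as short. Members over 2-fold apart between the tables numbered 2 with a pseudocount of 0.1, where Hist1h2ad joined Hist2h3c1, and 0 in CPM. The 0 does not mean that the difference was gone. Hist2h3c1 had 0, 4.10 and 185 counts in replicates 1, 2 and 3 of the kallisto-format tables, against 38.2, 149 and 400 in the gene tables. The median library ratio of replicate 1 turned to 0.35 without a filter on low counts, which brought in 51 members in place of 11, most of them with a handful of counts, and it was -0.18 with kallisto-format counts and -0.40 with TPM on the log2 scale, the cause of which was not tested. Leaving out one library at a time, the ratio of replicate 1 ranged from -0.76 to -0.37, that of replicate 2 from 0.72 to 0.76 and that of replicate 3 from -0.72 to 0.37. These values compare the same scaled counts in pairs, and in them replicate 3 lay above replicate 1 and below replicate 2. That order did not hold in every setting: replicate 3 was lowest with kallisto-format counts, at -0.24, and without the filter, at -0.65. The members at 1 TPM numbered 10 to 12 and the summed level ran from 321 to 420 TPM when one library was left out. No paired analysis was possible because there is 1 group. Depth limits the 35 members with under 3 counts in every gene table.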
